A study of Mus musculus with 5 samples.

Results

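The butein array was compared with its DMSO array, 1 array on each side, in adipocytes made from C3H10T1/2. C3H10T1/2 is a mouse mesenchymal cell line that can be turned into fat cells in culture. Butein is a plant polyphenol of the chalcone class with catechol hydroxyls. The cells were fully differentiated, had fresh medium the day before, and were left with butein or with the solvent DMSO for 6 h. The other groups of the series were sulfuretin, resveratrol and a further solvent array, DMSO1, which the labels give as the control of resveratrol. These 5 groups have 1 array each, and DMSO serves as control for butein and for sulfuretin. Doses are not given in the labels, and nothing in them says how many culture wells stand behind an array. The series description gives the question as which pro- or anti-adipogenic factors the compounds share. Genes entered through the brightest of their single-gene probe sets, and were counted when the highest of the 5 intensities reached the median of the probe set means, an intensity of 8.39 (the floor). That kept 12439 of 18194 genes. With 1 array a side there is no replicate error, so differences are described by size and no test is given.

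The label of the cells was checked first. Of 24 adipocyte markers 20 were counted, and the intensities of Adipoq, the gene of the adipocyte hormone adiponectin, were 7202 with DMSO, 6122 with butein, 6976 with sulfuretin, 6751 with DMSO1 and 6134 with resveratrol. Fabp4, which encodes the fatty acid carrier of fat cells, read 9134 with DMSO, 8512 with butein, 9340.1 with sulfuretin, 7550.4 with DMSO1 and 7338 with resveratrol. These defining genes were therefore far above the floor on all 5 arrays. The Fabp4 values are from its brightest probe set, which reads at the top of the array range, and a pair of dimmer ones is described with the probe sets. Summed over the 20 counted adipocyte markers, intensity was 29470 with DMSO and 24970 with butein. Of 17 macrophage and blood cell markers 7 were counted, and their summed intensity was 127 with DMSO and 120 with butein. Of 13 endothelial markers 5 were counted, with sums of 53.7 and 56.6. The 7 counted skeletal muscle markers summed to 139 and 112, and the 15 counted preadipocyte and fibroblast markers, which this culture also expressed, to 22970 and 21270. Since whole cultures were extracted, fewer cells of a kind and less RNA per cell cannot be told apart.

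The arrays carry values on different scales. The median intensity over all probe sets was 6.85 for DMSO, butein and sulfuretin, 11.1 for DMSO1 and 11.5 for resveratrol, so levels are read within the first 3 arrays or within the last 2. Where butein is set against DMSO1, the 5 arrays were first quantile normalized together. Between the solvent arrays treated in this way, DMSO1 lay 2-fold or more above DMSO for 295 genes and 2-fold or more below it for 427, more than the 289 genes past 2-fold between butein and DMSO. Cultures, array runs and normalization sets cannot be told apart in that difference.

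The gene groups described here belong to a few well-known responses. The transcription factor NRF2 is held in the cytosol by KEAP1 and degraded. When electrophiles or oxidants modify cysteines of KEAP1, NRF2 reaches the nucleus, pairs with small MAF proteins and binds antioxidant response elements in genes of glutathione, thioredoxin, heme and quinone metabolism. Immediate early genes are switched on by MAP kinase and calcium signals without new protein synthesis and include the phosphatases that turn those kinases off. Heat shock factors turn on chaperone genes when unfolded protein builds up in the cytosol. The integrated stress response lowers general translation and raises ATF4, which drives amino acid transport and the transcription factor CHOP. In fat cells, PPARgamma and C/EBP factors keep up the genes of lipid storage, and lipid droplet proteins set the rate of lipolysis.

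The large differences with butein were mostly upward, whereas small ones went either way, with 4107 counted genes above 0 and 4610 below. Past the 2-fold criterion were 252 counted genes upward (2.03%) and 37 downward (0.297%). Counts for the gene lists below are to be read beside these shares, and beside 33.0% of counted genes above 0 and 37.1% below. The lists were chosen with earlier results of these data known, so a list share above these is not support for the list. Exact ties were more common among dim genes, so the shares above and below 0 are a rough comparison for lists of bright genes. Against DMSO1, on the jointly normalized values, the split was 706 higher and 402 lower. Compared with DMSO, 60 genes reached 4-fold upward and 16 reached 8-fold, while Pnpla3 and G0s2 alone reached 4-fold downward. The middle 95% of genes lay between log2 differences of -0.58 and 0.88, the median was 0, and 29.9% of counted genes had the same value on both arrays, within 1e-06 on the log2 scale. Genes past 2-fold upward were found at all DMSO intensities: 26 among the counted genes read from 3.17 to 12.5, 86 from there to 42.4, 88 up to 125 and 52 above, ranges that hold about equal numbers of genes. Downward these ranges held 0, 10, 15 and 12 genes. Of the 252 higher genes, 13 had a DMSO value under the floor, and 3 of the 37 lower genes had a butein value under it, so their fold differences are uncertain.

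**Figure D1:**
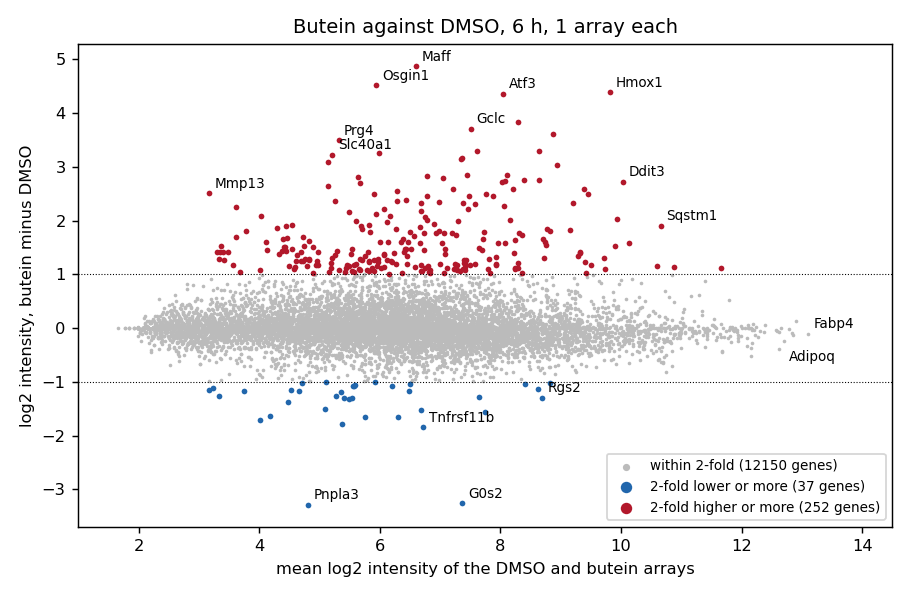
Log2 intensity with butein minus that with DMSO (vertical axis) against the mean log2 intensity of both arrays (horizontal axis) for 12439 counted genes, 1 array each. Red points are the 252 genes at least 2-fold higher, blue points the 37 at least 2-fold lower, grey points the others, and dotted lines mark 2-fold; Maff is the topmost point at 4.88, and Pnpla3 and G0s2 lie far below all others at -3.29 and -3.26.

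Regulators around NRF2 were among the genes with the largest differences. Of 15 counted NRF2 regulators 5 were past 2-fold higher and none lower, and the median was 0.38. Maff (NCBI gene 17133), a small MAF protein that pairs with NRF2, read 17.8 with DMSO, 525 with butein, 47.0 with sulfuretin, 31.2 with DMSO1 and 41.5 with resveratrol. It was thus 29.4-fold above DMSO, and butein was the highest of the 5 arrays by a wide margin. Osgin1, an oxidative stress-induced growth inhibitor, read 12.8 with DMSO, 295 with butein, 50.5 with sulfuretin, 36.2 with DMSO1 and 42.1 with resveratrol. Sqstm1, which encodes the autophagy receptor p62 that also binds KEAP1, went from 837 to 3128. Bach1, whose product is a heme-sensitive repressor at the same DNA elements, was 3.39-fold higher, and Mafg, another small MAF, 2.40-fold. The gene of NRF2 itself, Nfe2l2, was 1.89-fold higher and stayed short of 2-fold, with intensities of 216 with DMSO, 408 with butein, 247 with sulfuretin, 337 with DMSO1 and 393 with resveratrol. Keap1 hardly differed, at 95.1 with DMSO and 113 with butein.

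Genes of glutathione supply were split between a strongly higher group and an even remainder. Of 21 counted members 7 were past 2-fold higher, none was past 2-fold lower, and the median was 0.08. Gclc (NCBI gene 14629), the catalytic subunit of the enzyme that begins glutathione synthesis, read 50.3 with DMSO, 657 with butein, 209 with sulfuretin, 111 with DMSO1 and 139 with resveratrol. Gclm, its modifier subunit, read 262 with DMSO, 1318 with butein, 951 with sulfuretin, 417 with DMSO1 and 499 with resveratrol. Sulfuretin lay between DMSO and butein for both subunits, and nearer to butein for Gclm. The cystine importer is made of the Slc7a11 and Slc3a2 products: Slc3a2 went from 302 to 1072, and Slc7a11, which read 6.25 with DMSO and 16.7 with butein, was 2.68-fold higher from a DMSO value under the floor. Abcc1, an export pump for glutathione conjugates, was 3.05-fold higher. Abcc4, a related pump, was 2.75-fold higher than DMSO, but by a log2 difference of only 0.55 against DMSO1. Chac1, whose product breaks glutathione down, was 8.81-fold higher and also belongs to the integrated stress response.

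In the thioredoxin and peroxiredoxin list 2 of 20 counted genes were past 2-fold higher and the median was 0. They were Srxn1, the sulfiredoxin that restores overoxidized peroxiredoxins, at 83.2 with DMSO, 1181 with butein, 563 with sulfuretin, 219.8 with DMSO1 and 316 with resveratrol, and Txnrd1, the cytosolic thioredoxin reductase, at 127 with DMSO, 1255 with butein, 341 with sulfuretin, 298 with DMSO1 and 372 with resveratrol. Both were highest with butein, and sulfuretin lay between butein and DMSO. Among 23 counted genes of heme and iron handling, 4 were past 2-fold higher and the median was again 0. Hmox1 (NCBI gene 15368), the heme oxygenase that opens the heme ring, read 197 with DMSO, 4134 with butein, 2721 with sulfuretin, 378 with DMSO1 and 741 with resveratrol. Butein and sulfuretin stood together above the other arrays for Hmox1. Slc40a1, the iron exporter ferroportin, followed the same order at 12.1 with DMSO, 114 with butein, 81.0 with sulfuretin, 14.2 with DMSO1 and 19.1 with resveratrol. Flvcr1, a heme exporter, was 3.03-fold higher. Slc48a1, a heme transporter of the lysosome, was 2.45-fold higher, and 0.65 in log2 against DMSO1.

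Of 32 counted genes of quinone and electrophile detoxification 6 were past 2-fold higher, none lower, and the median was 0.03, which turned to -0.03 when each array was centred on its median. Nqo1, the quinone reductase often used as an NRF2 readout, read 61.1 with DMSO, 234 with butein, 153 with sulfuretin, 103 with DMSO1 and 95.8 with resveratrol. Tiparp, an ADP-ribosyltransferase induced by the aryl hydrocarbon receptor, was 3.40-fold higher, and the gene of that receptor, Ahr, 2.87-fold. Ptgr1, a reductase of prostaglandins and alkenals, was 3.17-fold higher, Ugdh, which makes UDP-glucuronate, 2.68-fold, and the carbonyl reductase gene Cbr3 2.65-fold. Cbr3 read 1039 with butein and 989 with sulfuretin, so the compounds were close for this gene. Aox1, an aldehyde oxidase, stayed just short of 2-fold at a log2 difference of 0.99. The pentose phosphate and NADPH list had no member past 2-fold among 15 counted, and its highest was Pgd, the phosphogluconate dehydrogenase, at 1312 with DMSO and 2602 with butein.

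Promoters of these genes were searched for the core of the antioxidant response element, TGACNNNGC on either strand, in RefSeq promoter windows of 300 bases (250 before to 50 after the start site, build GRCm38.p6). Promoter windows were found for 190 of the 252 higher genes and for 25 of the 37 lower genes. The core was in 12.4% of all promoters, in 14.1% of those of counted genes, in 18.1% of those of the higher genes and in 19.4% of those of the lower genes. In the redox gene lists, the members past 2-fold higher had 23 promoters, and 39.1% held the core. By gene these were 8 of 18, so most lacked it in the window. Over the redox lists as wholes, the share of promoters ran from 11.8% (pentose phosphate and NADPH) to 21.1% (NRF2 regulators). The stretches around it are shown for 5 genes described above, with the core in capitals: Srxn1 at chr2:152105532-152105573, plus strand; Txnrd1 at chr10:82859094-82859142, plus strand; Gclm at chr3:122245403-122245451, plus strand; Maff at chr15:79346489-79346537, plus strand; and Mafg at chr11:120633741-120633789, minus strand.
Srxn1: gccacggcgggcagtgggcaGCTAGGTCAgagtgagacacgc
Txnrd1: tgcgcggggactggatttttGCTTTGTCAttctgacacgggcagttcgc
Gclm: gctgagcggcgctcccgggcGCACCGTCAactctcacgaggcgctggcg
Maff: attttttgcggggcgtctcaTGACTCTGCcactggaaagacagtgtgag
Mafg: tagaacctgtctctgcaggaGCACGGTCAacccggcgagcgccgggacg
The core begins 29 bases after the start site in Srxn1 and 92, 134, 112 and 222 bases before it in Txnrd1, Gclm, Maff and Mafg. Txnrd1 and Maff each have 3 promoters, of which only 1 held the core. In Maff it reads in the forward direction, and in the other 4 genes in reverse. A match is a description of these letters and not a measured binding site.

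Many immediate early genes, though not most of those counted, were past 2-fold higher with butein. Of 17 counted AP-1 family genes, whose products form the FOS, JUN and ATF dimers, 8 were past 2-fold higher and none lower (median 0.37). Atf3 (NCBI gene 11910), a stress-induced member, read 58.4 with DMSO, 1199.8 with butein, 106 with sulfuretin, 154 with DMSO1 and 334 with resveratrol. Fosl1 read 18.7 with DMSO, 132 with butein, 29.0 with sulfuretin, 18.5 with DMSO1 and 22.1 with resveratrol, and Fos 46.0 with DMSO, 229.7 with butein, 31.1 with sulfuretin, 30.8 with DMSO1 and 45.6 with resveratrol. For Fos the sulfuretin array was below DMSO, and butein was the single high array. Jun was 5.53-fold, Fosl2 3.40-fold and Junb 3.75-fold higher. For Junb the DMSO value of 11.2 was close to the floor, and the log2 difference was 0.58 against DMSO1.

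Of 31 counted EGR, IER and other early genes 13 were past 2-fold higher and none lower, and the median was 0.72. Ifrd1, a transcriptional co-regulator, read 134 with DMSO, 1642 with butein, 236 with sulfuretin, 298 with DMSO1 and 590.1 with resveratrol. Egr1, the serum-induced zinc finger factor, read 272 with DMSO, 1642 with butein, 255 with sulfuretin, 292 with DMSO1 and 392 with resveratrol, and Ier2 64.6 with DMSO, 468 with butein, 66.6 with sulfuretin, 89.8 with DMSO1 and 128 with resveratrol. These 3 genes were highest with butein, and with resveratrol each read above its DMSO1 value. The other named members were Phlda1 (6.76-fold), Csrnp1 (6.29-fold) and Ier5 (6.01-fold). In the list of Kruppel-like factors 3 of 15 were past 2-fold higher, with a median of 0.02. They were Klf6 (3.48-fold), Klf10 (3.47-fold) and Klf4 (2.74-fold), and all 4 other probe sets of Klf6 were past 2-fold in the same direction.

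The genes of MAP kinase phosphatases and Sprouty-type inhibitors had the highest median of the 69 lists, 1.19 over 16 counted members, of which 8 were past 2-fold higher and 15 above 0. Dusp5, a nuclear phosphatase of ERK, read 41.3 with DMSO, 295 with butein, 40.8 with sulfuretin, 57.4 with DMSO1 and 85.8 with resveratrol. Dusp1, which acts on JNK, p38 and ERK, read 101 with DMSO, 667 with butein, 105 with sulfuretin, 145 with DMSO1 and 248 with resveratrol. Dusp10, which prefers JNK and p38, read 32.1 with DMSO, 189 with butein, 64.6 with sulfuretin, 64.4 with DMSO1 and 64.4 with resveratrol. With sulfuretin Dusp1 and Dusp5 read about as with DMSO, whereas Dusp10 was intermediate. Dusp16, Dusp2 and Dusp4 were 4.17-fold, 4.24-fold and 4.01-fold higher. The Dusp2 value with DMSO, 7.94, was under the floor.

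In the GADD45, BTG, TOB and Tribbles list, genes of growth arrest and kinase scaffolds, 6 of 14 counted members were past 2-fold higher (median 0.58). Btg2, an antiproliferative adaptor of mRNA deadenylation, read 54.6 with DMSO, 490.0 with butein, 43.5 with sulfuretin, 29.8 with DMSO1 and 64.8 with resveratrol. Gadd45g read 91.0 with DMSO, 515 with butein, 71.1 with sulfuretin, 101 with DMSO1 and 101 with resveratrol, and Gadd45a 55.6 with DMSO, 284 with butein, 75.3 with sulfuretin, 150.4 with DMSO1 and 215 with resveratrol. Btg2 and Gadd45g had sulfuretin values below DMSO. With resveratrol Btg2 and Gadd45a were above their DMSO1 values, Btg2 by 1.12 in log2. Trib1, a pseudokinase, was 5.13-fold higher. Of 26 counted mRNA decay factors, Noct (nocturnin) and Zfp36 (tristetraprolin, which targets AU-rich transcripts) were past 2-fold higher, at 62.7 with DMSO and 615 with butein and at 24.5 with DMSO and 97.6 with butein. No splicing kinase or SR protein among 19 was past 2-fold, and the highest, Clk4, was 1.83-fold higher.

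The cAMP response element TGACGTCA, searched on both strands, was in 1.79% of all promoters, 2.87% of those of counted genes, 4.02% of those of the higher genes and 6.45% of those of the lower genes. It is shown in capitals for 3 early genes: Btg2 at chr1:134079294-134079341, minus strand; Dusp1 at chr17:26508588-26508635, minus strand; and Ppp1r15a, described with the integrated stress response, at chr7:45526253-45526300, minus strand. It begins 166, 143 and 12 bases before their start sites.
Btg2: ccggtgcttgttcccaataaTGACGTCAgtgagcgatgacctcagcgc
Dusp1: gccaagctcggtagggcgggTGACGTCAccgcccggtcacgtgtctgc
Ppp1r15a: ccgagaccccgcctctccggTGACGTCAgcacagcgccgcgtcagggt
The AP-1 site TGANTCA was in 7.81% of all promoters, 5.24% of those of counted genes, 8.84% of those of the higher genes and 6.45% of those of the lower genes. In the lower genes these were 2 promoters of 1 gene.

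**Figure D2:**
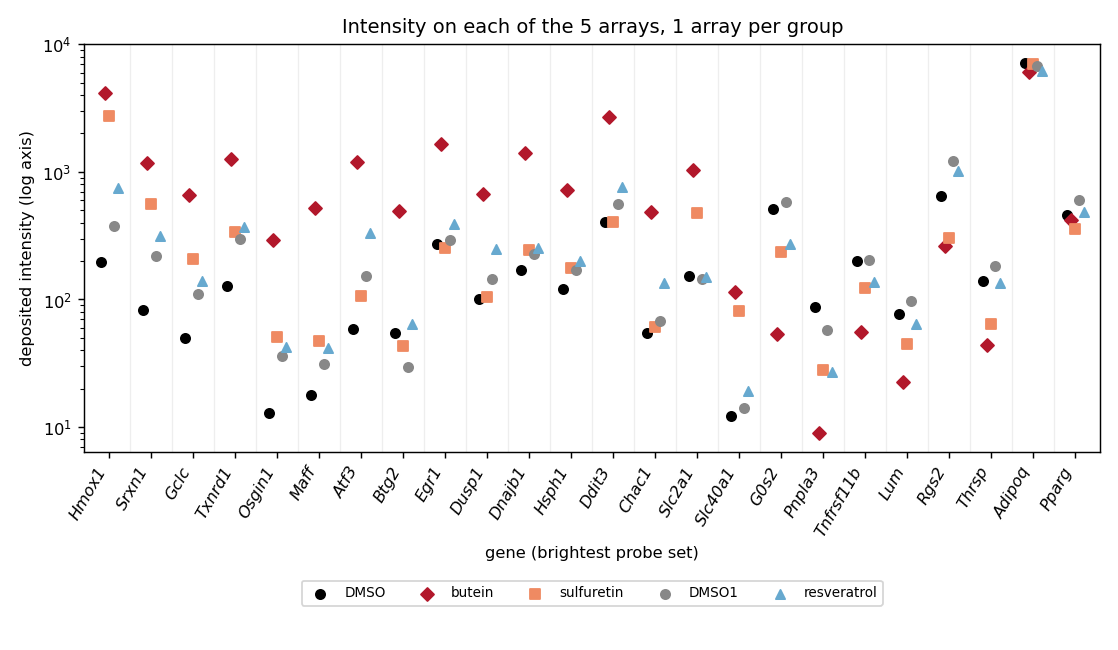
Deposited intensity (log axis) of 24 genes on each of the 5 arrays, 1 point per array; DMSO, butein and sulfuretin share a scale, and DMSO1 and resveratrol share another. Hmox1, Srxn1 and Slc40a1 are high with butein and with sulfuretin, Btg2, Egr1, Dusp1, Chac1 and Ddit3 are high with butein and close to DMSO with sulfuretin, and G0s2 and Pnpla3 are lowest with butein at 53.4 and 8.95.

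Some cytosolic chaperone genes were past 2-fold higher. Of 27 counted genes of the HSP70, HSP40 and HSP110 families 7 were past 2-fold higher, none lower, and the median was 0.38. Dnajb1, the HSP40 partner of HSP70, read 171 with DMSO, 1398 with butein, 242 with sulfuretin, 227 with DMSO1 and 253 with resveratrol. Hsph1, an HSP110 nucleotide exchange factor, read 121 with DMSO, 728 with butein, 176 with sulfuretin, 171 with DMSO1 and 201 with resveratrol. For both genes butein was well above DMSO and sulfuretin, the arrays on its scale. On a dimmer probe set Dnajb1 read 63.0 with DMSO, 654 with butein and 190 with DMSO1. A dimmer probe set of Hsph1 read 30.7, 237 and 112. DMSO1 is on its own scale in these values. Dnajb4 was 3.33-fold, Bag3, a co-chaperone of selective autophagy, 3.02-fold, the inducible HSP70 gene Hspa1b 2.89-fold and Dnaja1 2.47-fold higher. Hspa1b has a near-identical neighbouring copy, so its value may hold signal of both. Of 22 counted genes of the HSP90 system, small HSPs and heat shock factors, Hsf2, Hspb8 and Hsp90aa1 were past 2-fold higher (median 0.27). Against DMSO1 the log2 differences of Hspb8 and Hsp90aa1 were only 0.33 and 0.37, and Hsf2 had a DMSO value under the floor. The 14 CCT chaperonin and prefoldin genes had no member past 2-fold and a median of 0.01, which became -0.06 with centred arrays.

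The heat shock element, searched as 3 units of GAA and TTC in turn with any pair of bases between units, was in 0.603% of all promoters, 0.479% of those of counted genes, 0.803% of those of the higher genes and 0 of the 31 promoters of the lower genes. In the higher genes these were 2 promoters of 1 gene, Hsph1. Counted by gene, the share was 0.526% of the higher genes and 0.551% of the counted genes. The element was in 11.4% of the 35 promoters of the HSP70 list (2 of 23 genes). In the HSP90 list it was in 15.8% of the 19 promoters (3 of 17 genes). It is shown in capitals for Hsph1 at chr5:149636287-149636320, minus strand, where it begins 37 bases after the start site.
Hsph1: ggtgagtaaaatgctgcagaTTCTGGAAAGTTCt

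Of 35 counted ubiquitin and autophagy genes, a pair of zinc finger genes was past 2-fold higher. Zfand2a, an arsenite-induced protein of the proteasome, read 103 with DMSO, 740.3 with butein, 139.9 with sulfuretin, 200.3 with DMSO1 and 209 with resveratrol, and Zfand5, a relative, 481 with DMSO, 1970.2 with butein, 713 with sulfuretin, 521 with DMSO1 and 802 with resveratrol. Proteasome subunits themselves differed little: none of 38 was past 2-fold, 29 were above 0 and the median was 0.14. Their largest difference was 0.83, in the ATPase subunit gene Psmc6. Among 32 counted ER chaperones and unfolded protein response genes 28 were above 0 (median 0.30), and only Ero1a, the oxidase of disulphide formation, was past 2-fold, at 296 with DMSO, 1669.6 with butein, 445 with sulfuretin, 716 with DMSO1 and 754 with resveratrol. The 1 gene past 2-fold is 3.1% of that list, beside 2.03% of all counted genes. Hspa5, the ER chaperone BiP, was 1.85-fold higher.

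Integrated stress response regulators had 7 of 22 counted members past 2-fold higher, none lower and a median of 0.36. Ddit3, which encodes CHOP and in fat cells opposes C/EBP factors, read 408 with DMSO, 2693 with butein, 406 with sulfuretin, 564 with DMSO1 and 758 with resveratrol. Chac1 read 54.7 with DMSO, 482 with butein, 60.3 with sulfuretin, 67.4 with DMSO1 and 135 with resveratrol, and Ppp1r15a, the phosphatase subunit GADD34 that ends the response, 50.1 with DMSO, 346 with butein, 66.6 with sulfuretin, 100.1 with DMSO1 and 145 with resveratrol. All 3 were close to DMSO with sulfuretin. The pseudokinase gene Trib3 read 79.0 with DMSO, 313 with butein, 134 with sulfuretin, 109 with DMSO1 and 145 with resveratrol. Of 19 counted amino acid transporters 4 were past 2-fold higher, with a median of 0. Beside Slc3a2 and Slc7a11 these were Slc7a5, the leucine transporter that pairs with Slc3a2 (3.05-fold), and the cationic transporter Slc7a1 (2.19-fold). None of 15 genes of amino acid synthesis and one-carbon metabolism and none of 18 aminoacyl-tRNA synthetases was past 2-fold, with medians of 0.10 and 0.20. Got1, an aspartate aminotransferase, had the largest difference of the former at 0.69, and Aars, the alanyl-tRNA synthetase, of the latter at 0.73.

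The element bound by C/EBP and ATF factors, TGATGNAA on either strand, was in 3.97% of all promoters, 2.21% of those of counted genes, 3.61% of those of the higher genes, 9.68% of those of the lower genes and 26.1% of the 23 promoters of the integrated stress response list. It is shown in capitals for Atf3 at chr1:191183416-191183463, minus strand; Chac1 at chr2:119351029-119351076, plus strand; Trib3 at chr2:152344019-152344066, minus strand; and Slc7a11 at chr3:50443652-50443699, minus strand, where 2 copies lie side by side.
Atf3: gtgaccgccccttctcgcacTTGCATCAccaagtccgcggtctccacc
Chac1: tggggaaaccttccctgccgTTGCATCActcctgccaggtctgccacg
Trib3: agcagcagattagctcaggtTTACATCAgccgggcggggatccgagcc
Slc7a11: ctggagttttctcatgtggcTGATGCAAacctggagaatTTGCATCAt
The stretches lie 110, 193 and 66 bases before the start site in Atf3, Chac1 and Slc7a11, counted to the element nearest the 5′ end of the stretch, and 15 bases after it in Trib3.

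Ribosome biogenesis genes were shifted by small amounts, with 27 of 31 counted members above 0, a median of 0.27 and Gnl3, the nucleolar GTPase nucleostemin, past 2-fold (2.28-fold). That 1 gene is 3.2% of the list, beside 2.03% of all counted genes, of which 33.0% were above 0. The share above 0 is lowered by exact ties, which were more common among dim genes. Among 8 polyamine genes Sat1, the acetyltransferase that sends polyamines to export, was 2.35-fold higher.

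Some genes of glucose use and of the hypoxia response were past 2-fold higher. The hypoxia list had 6 of 22 counted members past 2-fold higher and a median of 0.48. Ak4, a mitochondrial adenylate kinase, read 12.1 with DMSO, 103 with butein, 51.6 with sulfuretin, 31.3 with DMSO1 and 31.8 with resveratrol. Of 3 other Ak4 probe sets at or above the floor 1 was past 2-fold, and the others differed by 0.21 and -0.02 in log2. Bhlhe40, a clock-linked repressor, was 3.33-fold, P4ha1, a collagen prolyl hydroxylase subunit, 2.26-fold, Hilpda 2.21-fold and the histone demethylase gene Kdm3a 2.08-fold higher. Of 22 counted glycolysis genes 3 were past 2-fold higher, and the median of 0.16 became -0.05 against DMSO1. Slc2a1, the glucose transporter GLUT1, read 153 with DMSO, 1029.8 with butein, 479.8 with sulfuretin, 144 with DMSO1 and 149.7 with resveratrol. In the set of 3 it was high with butein and intermediate with sulfuretin, and DMSO1 and resveratrol read alike. Hk2, a hexokinase, was 2.79-fold higher, and Slc16a1, a lactate transporter, 2.41-fold, although the log2 difference of Slc16a1 against DMSO1 was 0.47.

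Metal response and zinc transport genes had 15 of 18 counted members above 0, a median of 0.38 and the zinc exporter gene Slc30a1 past 2-fold (2.29-fold). Of 21 further solute carriers 4 were past 2-fold higher: the phosphate importer Slc20a1 (from 25.2 to 143), the bicarbonate transporter Slc4a4 (from 12.0 to 45.3), the thiamine transporter Slc19a2 (from 36.8 to 86.1) and the mitochondrial pyrimidine carrier Slc25a33 (from 67.9 to 154). Slc20a1 was the largest of these at 2.50 in log2. The p53 target list had 3 of 22 members past 2-fold higher, Btg2, the kinase gene Plk2 (4.80-fold) and Mdm2, the ubiquitin ligase of p53 (3.47-fold), and a median of 0. Among 27 apoptosis regulators Tnfrsf12a, the receptor of TWEAK, was past 2-fold (3.13-fold), and Mcl1, a short-lived survival factor, stayed just short at 525 with DMSO and 1044 with butein.

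Genes of secreted signals were higher one by one, with list medians at or near 0. Of 23 counted chemokines and cytokines 5 were past 2-fold higher. Clcf1, a cytokine of the IL-6 family, read 21.2 with DMSO, 94.6 with butein, 38.6 with sulfuretin, 43.1 with DMSO1 and 45.7 with resveratrol. Cxcl5, a neutrophil chemokine, read 10.3 with DMSO, 37.4 with butein, 33.0 with sulfuretin, 15.4 with DMSO1 and 13.8 with resveratrol, and stood alike with butein and sulfuretin. The other neutrophil chemokine Cxcl1 was 3.16-fold, the monocyte chemokine Ccl2 2.80-fold and Csf1, the macrophage growth factor, 2.18-fold higher. Of 3 other Csf1 probe sets at or above the floor 1 was past 2-fold, and the others read the same on both arrays. In the NF-kB list 2 of 26 counted genes were past 2-fold higher, Ptgs2, the inducible cyclooxygenase, at 47.0 with DMSO, 257 with butein, 46.0 with sulfuretin, 18.4 with DMSO1 and 25.3 with resveratrol, and Nfkbiz, a nuclear IkB protein, at 37.9 with DMSO, 197 with butein, 52.0 with sulfuretin, 55.4 with DMSO1 and 72.0 with resveratrol. Among 30 growth factors Hbegf, an EGF receptor ligand, was 2.86-fold higher. Socs3, which damps cytokine and insulin receptor signals, read 104 with DMSO, 698 with butein, 107 with sulfuretin, 98.2 with DMSO1 and 102 with resveratrol, with butein the single high array. The interferon response list had no member past 2-fold among 23, and its lowest, Ifit3, read 77.3 with DMSO and 39.8 with butein. F3, the coagulation initiator tissue factor, was 2.17-fold higher and the only 1 of 13 genes of the plasminogen and thrombospondin list past 2-fold.

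In the TGF-beta, activin and BMP list of 42 counted genes, 2 were past 2-fold higher and 2 past 2-fold lower. Each is 4.8% of the list, beside 2.03% higher and 0.297% lower over all counted genes. Tgif1 and Skil, whose products repress SMAD targets, were 5.16-fold and 2.68-fold higher. Fst, which binds and blocks activin, read 96.2 with DMSO, 30.4 with butein, 50 with sulfuretin, 132 with DMSO1 and 166 with resveratrol, and Gdf5, a BMP-type ligand, 20.2 with DMSO, 8.95 with butein, 14.3 with sulfuretin, 56.0 with DMSO1 and 33.1 with resveratrol. Vgll4, a competitor of YAP at TEAD factors, was 2.26-fold lower and the 1 of 24 YAP-linked genes past 2-fold. Of 25 counted RGS proteins and phosphodiesterases Pde5a, which degrades cGMP, was 2.84-fold lower, and Rgs2, which shortens Gq signals, read 646 with DMSO, 263 with butein, 305 with sulfuretin, 1212 with DMSO1 and 1023 with resveratrol. In the Wnt list of 29 genes the receptor gene Fzd5 was 2.32-fold higher, and no Notch pathway gene of 19 was past 2-fold, the nearest being Lfng, a glycosyltransferase of Notch, at -0.98.

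**Figure D3:**
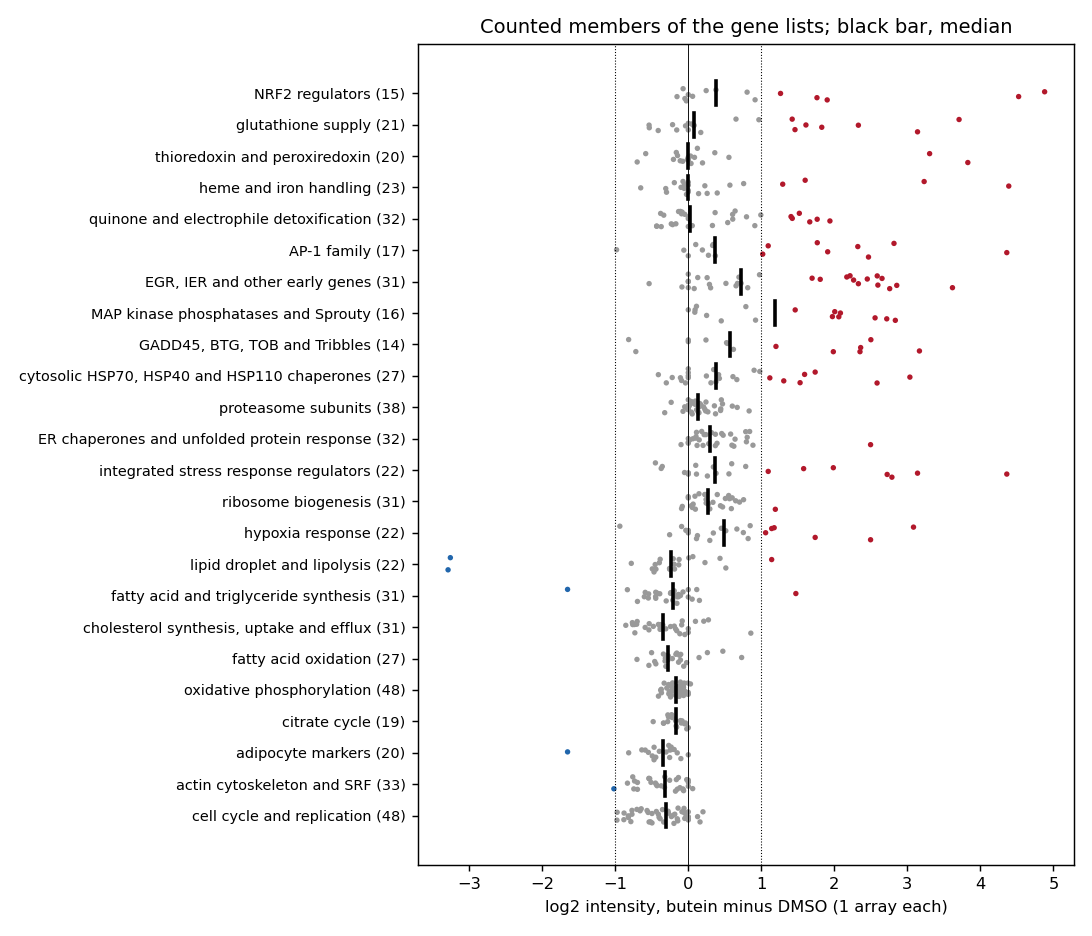
Log2 intensity with butein minus that with DMSO (horizontal axis, 1 array each) for the counted members of 24 gene lists, with the number counted in brackets; each point is a gene, red or blue past 2-fold (dotted lines), and the black bar is the median. MAP kinase phosphatases have the rightmost median at 1.19, stress lists hold a few far members beside many near 0, and the 9 lists from lipid droplet and lipolysis down to cell cycle and replication have medians to the left of 0.

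Most genes of fat storage lay below DMSO, by little. In the lipid droplet and lipolysis list 16 of 22 counted members were below 0 (median -0.23), with 2 past 2-fold lower and 1 past 2-fold higher. G0s2 (NCBI gene 14373), the inhibitor of adipose triglyceride lipase, read 511 with DMSO, 53.4 with butein, 237 with sulfuretin, 579 with DMSO1 and 274 with resveratrol. Pnpla3 (NCBI gene 116939), a lipid droplet acyltransferase and hydrolase induced by feeding, read 87.5 with DMSO, 8.95 with butein, 28.0 with sulfuretin, 57.4 with DMSO1 and 27.2 with resveratrol. Both were lowest with butein, lower with sulfuretin than with DMSO and lower with resveratrol than with DMSO1. The member past 2-fold higher was Hilpda, another inhibitor of that lipase, and the lipase gene itself, Pnpla2, was 1.19-fold lower. Of 31 counted genes of fatty acid and triglyceride synthesis 25 were below 0 (median -0.21). Thrsp, a regulator of lipogenesis, read 139 with DMSO, 44.3 with butein, 64.6 with sulfuretin, 183 with DMSO1 and 134 with resveratrol, and Lpin2, a phosphatidate phosphatase, was 2.78-fold higher.

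Cholesterol genes had no member past 2-fold, but 25 of 31 counted members were below 0 and the median was -0.35. The lowest was Fdft1, squalene synthase, at 642 with DMSO and 355 with butein, and the highest was Npc1, a lysosomal cholesterol exporter, at 15.4 with DMSO and 27.8 with butein. Fatty acid oxidation genes were below 0 in 23 of 27 cases (median -0.27), led by the peroxisomal enzyme gene Ehhadh at -0.70. Oxidative phosphorylation genes were below 0 in 46 of 48 cases and citrate cycle genes in 18 of 19, with medians of -0.16 and -0.17 and no member past 2-fold. Against DMSO1 the median of the oxidative phosphorylation genes was -0.04 and that of the citrate cycle genes -0.47. For comparison, 37.1% of all counted genes were below 0.

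Adipocyte markers were at or below DMSO throughout: 19 of 20 counted were below 0 and 1 was equal, with a median of -0.35 (-0.61 against DMSO1). On brightest probe sets Thrsp was the only marker past 2-fold, whereas a pair of dimmer probe sets of Fabp4 was also past 2-fold lower. A further Fabp4 probe set, brighter than that pair, differed by only -0.17 in log2. Lpl, the lipoprotein lipase gene, was 1.20-fold lower, and Car3, carbonic anhydrase of fat and muscle, went from 199 to 113 but differed by 0.09 in log2 against DMSO1. Of 31 counted adipogenic transcription factors Cebpb, an early driver of adipogenesis, was past 2-fold higher and read 648 with DMSO, 1937 with butein, 1062 with sulfuretin, 974 with DMSO1 and 991 with resveratrol. The later drivers lay slightly below DMSO: Pparg read 462 with DMSO, 416 with butein, 355 with sulfuretin, 602 with DMSO1 and 481 with resveratrol, and Cebpa 158 with DMSO, 114 with butein, 160.1 with sulfuretin, 378 with DMSO1 and 332 with resveratrol. The median of that list, -0.08, turned to 0.05 against DMSO1. Of 34 repressors of adipogenesis Ddit3, Trib3 and Sirt1, a deacetylase, were past 2-fold higher, Sirt1 at 40.3 with DMSO, 123 with butein, 61.6 with sulfuretin, 69.9 with DMSO1 and 93.4 with resveratrol. Thermogenic and beige genes had no member past 2-fold among 22, with Prdm4 at 1.73-fold, Zfp516 at 1.98-fold and Ppargc1a at 1.21-fold above DMSO.

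Among 23 adipokines Tnfrsf11b, the secreted decoy receptor osteoprotegerin, was past 2-fold lower and read 199 with DMSO, 55.7 with butein, 124 with sulfuretin, 203 with DMSO1 and 137 with resveratrol. Of 30 adipocyte receptors 3 were past 2-fold lower: Npr3, which clears natriuretic peptides, at 173 with DMSO, 60.3 with butein, 128 with sulfuretin, 215 with DMSO1 and 253 with resveratrol; Lpar6, a lysophosphatidic acid receptor (2.12-fold); and Mc2r, the ACTH receptor (2.11-fold). Those 3 receptors are 10% of their list, beside 0.297% of all counted genes past 2-fold lower. In the circadian clock list 4 of 22 counted genes were past 2-fold higher (median 0.15), namely Noct, Bhlhe40, the repressor gene Nfil3 (2.10-fold) and Rora (2.02-fold). Rora lay near the criterion, and 2 of its 7 other probe sets at or above the floor were past 2-fold.

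Matrix, cytoskeleton and cell cycle genes were mostly below DMSO. Among 20 small leucine-rich proteoglycans and relatives, Lum (lumican) read 77.3 with DMSO, 22.3 with butein, 45.1 with sulfuretin, 96.6 with DMSO1 and 64.4 with resveratrol and Aspn (asporin) 584 with DMSO, 265 with butein, 439 with sulfuretin, 892 with DMSO1 and 708 with resveratrol, while Prg4 (lubricin) read 11.9 with DMSO, 134 with butein, 16.1 with sulfuretin, 58.4 with DMSO1 and 58.4 with resveratrol and Sdc4 (syndecan 4) was 2.16-fold higher. Prg4 was higher on the DMSO1 array than on DMSO, and its log2 difference was 3.49 against DMSO and 1.80 against DMSO1. None of 46 collagens and matrix proteins was past 2-fold, and their median was -0.03. Of 29 matrix remodelling enzymes Mmp13, a collagenase, was 5.72-fold higher from a DMSO value of 3.75, under the floor, and the protease gene Adamts1 2.04-fold. Actin and SRF-linked genes were below 0 in 27 of 33 cases, with a median of -0.32, and Myl9, a myosin light chain, was past 2-fold lower at 646 with DMSO and 319 with butein. Against DMSO1 Myl9 differed by only -0.13. The cell cycle and replication list was below 0 in 40 of 48 cases, had a median of -0.31 (-0.65 against DMSO1) and no member past 2-fold, the lowest being Rrm2, a ribonucleotide reductase subunit (-0.98), and the replicative helicase gene Mcm4 (-0.97). No tubulin of 15 was past 2-fold.

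The lists held 120 of the 252 higher and 15 of the 37 lower genes. Among the genes with the largest differences outside them were Lonrf3, a RING finger gene, at 20.5 with DMSO, 196 with butein, 26.4 with sulfuretin, 52.7 with DMSO1 and 62.4 with resveratrol, and Jade3, a chromatin reader gene, at 19.9 with DMSO, 129 with butein, 34.0 with sulfuretin, 40.4 with DMSO1 and 75.8 with resveratrol. Butein was the high array for both. Lower genes outside the lists included Plscr2, of the phospholipid scramblase family (3.28-fold), Fam107a (2.94-fold), Lrig1, an inhibitor of EGF receptor signalling (2.44-fold), Cemip, of hyaluronan turnover (2.48-fold), Abcd2, a peroxisomal transporter of very long fatty acids (2.26-fold), and B3galt2, a galactosyltransferase (2.22-fold, to a butein value under the floor). Fam107a read 368 with DMSO, 125 with butein, 264 with sulfuretin, 384 with DMSO1 and 329 with resveratrol, and both its other probe sets were past 2-fold lower as well. Cemip rested on DMSO alone: its log2 difference against DMSO1 was -0.01.

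How far a difference was shared by the probe sets of a gene was read on the genes past 2-fold. The higher genes had 336 other probe sets, of which 265 reached the floor. Of these 265, 223 (84.2%) had the same sign, 109 were past 2-fold in the same direction and 0 past 2-fold in the opposite direction. Of the 71 under the floor, 28 had the same sign and 0 were past 2-fold. The lower genes had 37 others, of which 32 reached the floor, 23 with the same sign and 12 past 2-fold. In 86 of the higher and 14 of the lower genes the brightest probe set was the only one. Of 149 higher genes with another probe set at or above the floor, 49 were past 2-fold on all of these and 69 on none. In 36 of the 149 at least 1 lacked the same sign. Of 20 such lower genes, 3 were past 2-fold on all and 10 on none. Slc2a1, Socs3, Txnrd1, Ero1a, Hspa1b and Fam107a were past 2-fold on each of their 2 other probe sets at or above the floor. Ddit3 was not on its other probe set, where the difference had the opposite sign. Dusp10, Flvcr1, Ahr and Tnfrsf11b differed by 0, 0, -0.03 and -0.10 in log2 on another probe set at or above the floor.

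Among genes within 2-fold on the brightest probe set, 95 of 9587 other probe sets at or above the floor (0.991%) were past 2-fold, in 59 genes upward and 29 downward. Among these, Fabp4 had the largest gap to its brightest probe set: a dimmer one went from 422 to 80.0 (5.28-fold lower) and another from 232 to 54.2 (4.28-fold lower), beside a log2 difference of -0.10 on the brightest. A further Fabp4 probe set, brighter than this pair, read 4158.9 with DMSO and 3690.5 with butein, a log2 difference of -0.17. The following 3 were chosen after their values were seen. Arid5b, a chromatin factor of adipogenesis, went from 8.89 to 58.8 on a dimmer probe set and differed by 0.72 in log2 on its brightest. Scd2, a fatty acid desaturase, read 140.6 with DMSO on a dimmer probe set, with a log2 difference of -1.49 there and of -0.18 on its brightest. Vegfa, the angiogenic growth factor, went from 45.6 to 150.3 on a dimmer probe set and differed by 0.82 on its brightest. Which transcript forms these probe sets read was not tested.

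**Figure D4:**
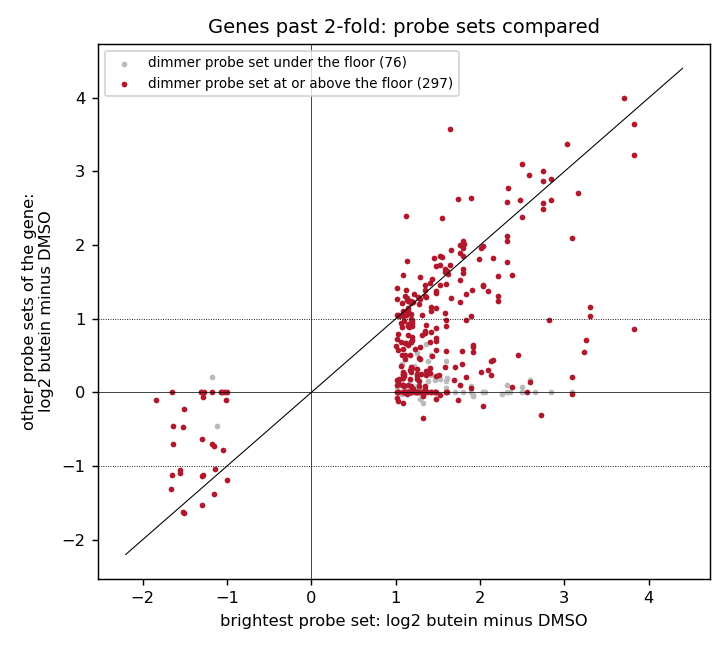
Log2 difference (butein minus DMSO, 1 array each) of the brightest probe set of each gene past 2-fold (horizontal axis) and of its other probe sets (vertical axis); red points reach the floor, grey points do not, the diagonal marks equality and dotted lines mark 2-fold. Grey points lie near 0, many red points lie along the diagonal, and 0 points pass 2-fold in the direction opposite to the brightest probe set.

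Against the DMSO1 array most of these differences had the same direction. Both comparisons use the same butein array, so they are not independent. After joint quantile normalization 249 of the 252 higher genes were above DMSO1, 187 of them by at least 2-fold, beside 5.68% of all counted genes. For 246 of the 252 butein was the highest of the 5 arrays, beside 20.5% of all counted genes. The 3 genes in the opposite direction were Ampd3 (-0.07), Taf7 (-0.29) and Nab2 (-0.21). Of the 37 lower genes 36 were below DMSO1, 20 of them by at least 2-fold, beside 3.23% of all counted genes, and for 31 butein was the lowest array, beside 30.8%. The exception was Ldb3, a muscle-type Z-disc protein gene, at 0.13. Since genes were chosen for a low or high DMSO value as much as for butein, these counts describe the arrays and are not support for single genes.

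**Figure D5:**
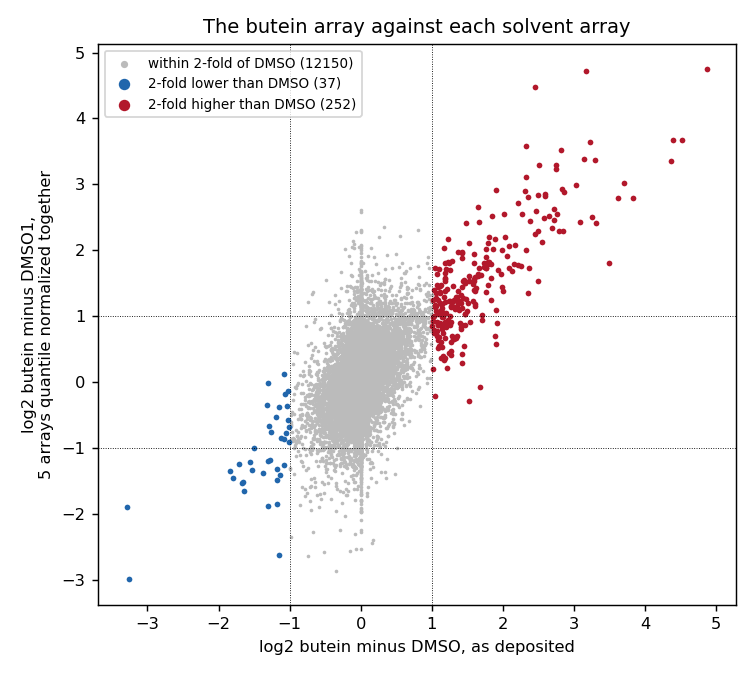
Log2 difference of the butein array to DMSO as deposited (horizontal axis) and to DMSO1 after the 5 arrays were quantile normalized together (vertical axis) for 12439 counted genes; both axes share the butein array. Most red points (252 genes at least 2-fold above DMSO) lie above 0 on the vertical axis, 187 of them past 2-fold, and most of the 37 blue points lie below 0, 20 of them past 2-fold.

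The same genes were read on the arrays of the other compounds, whose doses are likewise not given. The sulfuretin comparison shares its DMSO array with butein, so a low DMSO value enters both. Over the 252 higher genes the median log2 difference was 1.44 with butein and 0.45 with sulfuretin, and no count of shared genes is given for that reason. With resveratrol against DMSO1, which shares no array with butein against DMSO, 204 were above, 5 of them by at least 2-fold, and 32 below, with a median of 0.16. Over all counted genes 32.9% were above DMSO1 with resveratrol, 34.0% below, 0.0804% 2-fold higher and 0.0643% 2-fold lower. Of the 37 lower genes 28 were below DMSO1 with resveratrol, 4 of them 2-fold or more. The medians with butein and with sulfuretin were 0.38 and 0.15 for NRF2 regulators, 0.08 and 0.14 for glutathione supply, 0.37 and 0.15 for the AP-1 family and 1.19 and 0.13 for MAP kinase phosphatases. Single genes of each list were close to DMSO with sulfuretin and others were not. The differences between compounds were not tested.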

How the data were processed

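Total RNA (500 ng per labelling, per the labels' protocols) was read on 5 Affymetrix arrays, 1 per group. The deposited values are intensity values on a linear scale, made with RMA per the submitters' processing notes, with no version, background step or genome build given in the sources used here. The sorted values of the DMSO, butein and sulfuretin arrays are almost the same, but differ from those of DMSO1 and resveratrol, which points to 2 separate normalizations by the authors. Log2 was taken of each deposited intensity with no pseudocount. No detection calls or depth come with the values, and 1 array per group limits the precision.

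Of 45037 probe sets 34945 name 1 gene, 932 several and 9160 none in the platform annotation. A RefSeq table (GRCm38.p6) gave current symbols by gene ID for 34741 of them. Each gene was read on its brightest probe set, and genes under the floor on all arrays were left out. A fold criterion of 2 stands in for a test.

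Named were the 30 highest and 30 lowest genes past 2-fold without clone names, up to 6 members past 2-fold per list, the 2 largest differences of lists with fewer, and a fixed set of NRF2 and adipocyte genes. Not all of them are described. The members and the 69 gene lists were chosen with earlier results of these data known, and a gene can be in several lists. No list was tested. A list median of 0.25 or more in size counted as shifted when alternatives were compared.

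As alternatives the fold criterion was set to 1.5 or 3, the floor was dropped or raised to percentile 75, and probe sets were averaged per gene. Further ones were leaving out cross-hybridising probe sets, joint quantile normalization, centring, a lowess correction (span 0.4), DMSO1 or the mean of both solvent arrays as control, and a change larger than that between the solvent arrays. The counting was tested on simulated data. Scripts ran in Python 3.11.15 with pandas 2.3.3, numpy 2.4.6, statsmodels 0.14.6, scipy 1.17.1 and matplotlib 3.10.9.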

Additional observations from a re-analysis of the deposited data

Results flagged for a closer look

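Probe sets that name no gene or several did not enter the comparison, and some of them differed past 2-fold. Of 3688 such probe sets at or above the floor, 35 were at least 2-fold higher with butein and 35 at least 2-fold lower (0.949% each), against 2.03% and 0.297% of counted genes. The highest went from 4.45, under the floor, to 67.8, and the lowest from 96.6 to 19.1.

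A pair of early genes past 2-fold higher with butein lay below DMSO with sulfuretin by at least 0.5 in log2. Fos differed by -0.57 with sulfuretin and by 2.32 with butein, and Gadd45b by -0.52 and 1.20. The difference between the compounds was not tested, and both comparisons share the DMSO array.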

How the results depend on the processing

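The counts of 252 higher and 37 lower genes became 623 and 307 at a 1.5-fold criterion and 107 and 8 at 3-fold. With probe sets averaged per gene they were 166 and 23, of which 159 and 21 were among the genes of the main setting. With DMSO1 as control and joint quantile normalization they were 706 and 402, of which 187 and 20 were shared, and with the mean of both solvent arrays 263 and 70. Leaving out the floor, raising it to percentile 75, leaving out cross-hybridising probe sets, joint quantile normalization, centring, the lowess correction and requiring a difference larger than that between the solvent arrays left counts of 226 to 267 higher and 34 to 55 lower. As for probe set agreement, the share of other probe sets with the same sign was 73.7%, and 82.8% among those at or above the floor. With DMSO1 and joint quantile normalization Ldb3 reversed to 0.13, as did Ampd3, Taf7 and Nab2, given above; the cause was not tested. Some named genes within 2-fold also changed sign there, among them Car3 (0.09), Jag1 (0.64) and Got1 (-0.06). No list median of at least 0.25 in size reversed under these alternatives. No paired analysis was possible because each group has 1 array. With no replicate arrays, differences near 2-fold and those of genes read near the floor are uncertain, and solvent, culture and array run cannot be told apart between DMSO and DMSO1.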
